A study of Mus musculus with 42 samples.

Results

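The 10 receptor genes described here serve macrophages to bind and take up lipoproteins, glycoproteins, microbes and dying cells, and they were followed by ChIP-seq in mouse bone marrow-derived macrophages (BMDM). The genes are Msr1, Marco, Cd36, Scarb1, Scarb2, Mrc1, Stab1, Cd163, Mertk and Axl, chosen by symbol out of 21897 protein-coding genes. RNA polymerase II (Pol II) was measured over each gene with 500 bp either side, and acetylation of histone H3 at lysine 27 (H3K27ac), which decorates promoters and enhancers in use, within 2500 bp of its start. BMDM came from male C57Bl6/J mice, 6 to 12 weeks old, either wild type (WT) or deficient in Nur77 (Nur77-KO), the nuclear receptor encoded by Nr4a1. They were untreated (0 h) or given 100 ng/ml lipopolysaccharide (LPS), the endotoxin of Gram-negative bacteria, for 1 h or 18 h. With 3 libraries per antibody and 1 input in each of the 6 combinations of genotype and time, the study comprised 42 libraries. The KO is a whole-body deletion made with Cre and loxP, and the methods state that Cre was bred out, whereas the genotype label of the KO libraries still names Cre. All cells were grown in medium conditioned by L929 cells for 7 days, so both genotypes were macrophages of culture and not of a tissue. The methods speak of biological replicates, but whether the 3 libraries of a group came from separate mice is not given, and the p-values measure the spread between these libraries.

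Scavenger receptors are membrane proteins that recognise modified lipoproteins, microbial surfaces and debris, and each binds many unlike ligands. Efferocytosis, the engulfment of dying cells, relies on receptors that sense phosphatidylserine on the dying cell, either directly or through a soluble bridging protein such as Gas6. In macrophages these receptors feed cholesterol and other lipids into the cell and are part of the clearance phase that follows inflammation. Pol II over a gene reports polymerase engaged on it and not the amount of RNA or protein.

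The 250 bases upstream of a RefSeq start (GRCm38.p6) were at hand for 8 of the 10 genes, all but Msr1 and Scarb1. The 5 shown here span the range of base composition among the receptors with Pol II, with each CpG dinucleotide in capitals and all written 5′ to 3′ on the strand of the gene. Mrc1 lies at chr2:14229164-14229413 on the plus strand, Mertk at chr2:128698665-128698914 on the plus strand, Cd36 at chr5:17835897-17836146 on the minus strand, Scarb2 at chr5:92505658-92505907 on the minus strand and Cd163 at chr6:124304401-124304650 on the plus strand.
Mrc1: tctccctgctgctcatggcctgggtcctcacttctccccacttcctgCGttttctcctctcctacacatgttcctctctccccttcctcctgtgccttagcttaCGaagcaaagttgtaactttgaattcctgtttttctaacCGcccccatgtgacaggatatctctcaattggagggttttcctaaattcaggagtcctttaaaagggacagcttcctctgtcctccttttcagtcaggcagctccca
Mertk: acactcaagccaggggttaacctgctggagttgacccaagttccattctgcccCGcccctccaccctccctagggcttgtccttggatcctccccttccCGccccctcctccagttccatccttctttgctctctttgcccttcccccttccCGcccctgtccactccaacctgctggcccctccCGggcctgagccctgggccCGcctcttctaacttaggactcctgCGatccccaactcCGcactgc
Cd36: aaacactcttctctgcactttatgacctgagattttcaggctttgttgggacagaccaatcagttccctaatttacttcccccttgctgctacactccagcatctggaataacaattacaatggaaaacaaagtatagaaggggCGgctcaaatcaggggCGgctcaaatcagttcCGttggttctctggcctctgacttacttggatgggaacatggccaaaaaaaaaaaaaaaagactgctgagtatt
Scarb2: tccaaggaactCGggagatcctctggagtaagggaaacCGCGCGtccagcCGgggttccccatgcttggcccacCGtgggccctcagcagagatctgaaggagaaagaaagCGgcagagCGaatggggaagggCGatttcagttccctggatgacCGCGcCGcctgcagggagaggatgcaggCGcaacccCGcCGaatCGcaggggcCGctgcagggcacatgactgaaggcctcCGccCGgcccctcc
Cd163: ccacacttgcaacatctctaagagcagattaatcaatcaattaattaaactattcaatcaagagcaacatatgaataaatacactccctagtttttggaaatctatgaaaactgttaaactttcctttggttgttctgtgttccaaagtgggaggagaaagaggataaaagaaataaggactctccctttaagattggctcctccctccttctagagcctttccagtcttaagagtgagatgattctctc

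Scarb2, which encodes a lysosomal membrane protein, had 19 CpG in its window and 65.6% G and C. Mertk followed with 7 CpG and 63.6%, and Mrc1 had 3 CpG and 49.6%. Cd163 had none and 36.8%, and Marco had none and 47.6%. Axl and Stab1 had 5 CpG each, with 60% and 57.2% G and C. The Cd36 window, with 3 CpG and 43.2%, lies upstream of a start 52905 bp inside the gene as GENCODE draws it. A set of 6 motifs was searched on both strands of these 8 windows. They were the AP-1 motif TGANTCA, the Nur77 monomer element NBRE as AAAGGTCA, the PU.1 motif GAGGAAGT, the E-box CACGTG, and the NF-kB and ISRE motifs. None was found in any of the 8 windows, where 6.75%, 1.34%, 2.44%, 6.02%, 0.356% and 2.98% of 32851 RefSeq windows held them, in that order. No match says only that these letters are not in these windows.

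Depth in M (mega) tags was 21.7 to 36.1 for Pol II, 13.5 to 55.4 for H3K27ac and 25.6 to 45.3 for inputs. Values are normalized tags, the tags in called regions per 10 M tags of the library, and a 0 means that no region passed the search there. Replicates correlated at r of 0.985 to 0.993 across 10650 genes for Pol II. For H3K27ac the range was 0.986 to 0.994 across 10438 genes in 14 of the 18 pairs, and 2 libraries stood apart. The H3K27ac library labelled Nur77-KO replicate 1 at 1 h correlated at 0.91 to 0.912 with its own group and at 0.978 to 0.98 with WT at 1 h. The library labelled Nur77-KO replicate 1 at 18 h correlated at 0.913 to 0.914 with its own group at 0.906 to 0.908 with WT at 18 h and at up to 0.905 with the libraries of Nur77-KO at 1 h. The first of these libraries thus went against its genotype label, and whether either label is wrong was not tested. The calls and counts of the receptors for H3K27ac are therefore given with both and, where a call differed, without them. The targeted gene Nr4a1 carried 189, 188 and 208 normalized Pol II tags in the WT libraries at 0 h and 87.8, 76.1 and 70.2 in the Nur77-KO libraries. The groups did not overlap (log2 change -1.22, SE 0.17, adjusted p = 0.00012, limma). At 1 h, the WT libraries had 25.5, 23 and 30.4 tags and the Nur77-KO libraries 33.5, 39 and 36.6, all above WT, and the adjusted p was 0.0926 (limma). At 18 h WT had 7.46, 5.98 and 0 and all Nur77-KO libraries were listed at 0. All 8 macrophage markers were above 0 in every group. Their summed Pol II, most of it after LPS from Adgre1 (F4/80), ranged from 18856 to 21221 in WT and 20105 to 21140 in Nur77-KO at 0 h, from 26363 to 27168 against 17375 to 18103 at 1 h and from 36725 to 37213 against 29427 to 30591 at 18 h. Per kb the sums ranged from 1685 to 1813 and 1557 to 1832 at 0 h, 1106 to 1120 and 1008 to 1097 at 1 h, and 1102 to 1179 and 889 to 924 at 18 h. Between genotypes, 0 of the 8 markers were called at 0 h (limma, 1 at an unadjusted p under 0.05), 2 higher and 3 lower in Nur77-KO at 1 h, and 5 lower at 18 h. Of all genes, 6.89% were called at 0 h, 38.1% higher and 7.53% lower at 1 h, and 7.55% higher and 13.4% lower at 18 h. Of 6 neutrophil markers, S100a9, Ly6g, Mpo and Elane were at 0 in all libraries, whereas S100a8 had 43, 39.3 and 45.3 tags in Nur77-KO and 15.4, 16.6 and 15.9 in WT at 0 h. After 1 h it had 11.6, 17 and 8.62 in Nur77-KO and was listed at 0 in WT, and Cxcr2 had 7.36, 11.4 and 0 against 0, 0 and 5.18 at 0 h. The 5 T cell markers summed to 75.2 to 172 tags, from 2 genes, with Cd3e, Cd3g and Cd8a at 0 throughout. The 5 fibroblast markers summed to 0 to 60.4, with Col1a1, Col1a2 and Lum at 0, and all 4 mast cell markers were at 0. The 6 dendritic cell markers summed to 268 to 1379, most of it from Xcr1, which at 18 h had 914, 606 and 357 in Nur77-KO and 388, 312 and 365 in WT, while Cd209a was at 0. The share of these levels in the receptor values was not tested, and in bulk cultures a lower level in each cell and fewer cells with it cannot be told apart.

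Per kilobase of gene, Cd36 led in resting WT BMDM with 127 normalized tags per kb, rank 300 of 13406 genes above 0. Stab1 followed with 92.7, Msr1 with 67 and Mrc1 with 53.5. Mertk with 18.9 (SD 1.76) and Cd163 with 18.6 (SD 1.99) did not differ beyond their spread, and neither did Scarb2 with 6.91 (SD 1.33) and Axl with 6.7 (SD 1.19). Scarb1 had 2.74 and Marco was listed at 0. The per-kb levels therefore fell into a high set of 4 endocytic receptors, an intermediate pair and a low set.

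Input libraries without antibody also gave regions over these genes. Over Cd36 they held 177 to 1201 normalized tags, over Msr1 42.2 to 600, over Mertk 5.4 to 629 and over Mrc1 30 to 528. The lowest of each came from the Nur77-KO input at 18 h. Over Cd36 in WT at 1 h the input held 857, beside Pol II of 1083 to 1319, and in Nur77-KO 847, beside 2474 to 2513. The Nur77-KO input of 18 h had 27554 called regions against 64725 to 108461 in the others and 6.18% of its tags in them against 11% to 19.8%. At 18 h Mrc1 had 62.1 to 114 Pol II tags in both genotypes, below the 364 to 528 of those other 5 inputs. These are sums over the whole gene, whereas that Pol II lay almost all in the first of 4 equal segments. Within 2500 bp of the Mrc1 start the inputs held 2.5 to 44.1 tags. Whether the Pol II left at 18 h stood above background was not tested.

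LPS for 1 h moved most of the receptors, as it moved most genes. Marco and Cd163 were at or near 0 in at least 1 group of most comparisons and entered those tests only through the group in which they were high, so counts are also given for the receptors found in at least 2 of 3 libraries of every group compared. In WT, 10 of 10 receptors tested were called at a limma adjusted p under 0.05, 3 higher and 7 lower, where 86.9% of all genes were called (18.6% higher and 68.3% lower). Without Marco and Cd163 these were 8 of 8, 2 higher and 6 lower. In Nur77-KO, 9 of 10 were called, 2 higher and 7 lower, and 7 of 8 without that pair, against 82.9% of genes (20.6% higher and 62.2% lower). The median log2 change of the 8 receptors found in every group was -1.26 in WT and -1.24 in Nur77-KO, beside -0.82 and -0.62 over all genes tested. When each library was centred on its median, LPS changes at 1 h shifted up by 0.80 in WT and 0.57 in Nur77-KO, and the share of calls over all genes that were higher went from 21.4% to 49.3% and from 24.9% to 48.7%.

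At 18 h, 9 of 9 receptors tested in WT were called, 3 higher and 6 lower, against 66.5% of genes (33.2% higher and 33.3% lower). Without Cd163 these were 8 of 8, 3 higher and 5 lower. In Nur77-KO, 9 of 10 were called, 3 higher and 6 lower, and 7 of 8 without Marco and Cd163, against 70.1% of genes (28% higher and 42.1% lower). The median log2 change without those genes was -0.38 in WT and -0.56 in Nur77-KO, beside -0.00 and -0.18 over all genes. The 1 h and 18 h comparisons of a genotype share its 0 h libraries.

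Msr1 (ENSMUSG00000025044, chr8:39581685-39642673, minus strand, GENCODE vM21) encodes the class A scavenger receptor that takes up modified low-density lipoprotein. It carried 3646, 4423 and 4386 normalized Pol II tags in WT at 0 h, 12156, 11384 and 11586 after 1 h and 5425, 5481 and 5649 after 18 h. In Nur77-KO it carried 2528, 2479 and 2695 at 0 h, 10467, 10018 and 9907 after 1 h and 3806, 3737 and 3817 after 18 h. Every Nur77-KO library was below every WT library of its time, and in both genotypes the 1 h libraries were the highest. The mean rose 2.82-fold at 1 h in WT (log2 change 1.50, adjusted p = 1.71e-13, limma) and 3.95-fold in Nur77-KO (1.98, 3.5e-15). After 18 h of LPS the mean was still 1.33-fold above that of untreated WT cells (0.41, 1.17e-05), and 1.47-fold above in Nur77-KO (0.56, 2.71e-07). The genotype difference was 1.62-fold at 0 h (log2 change -0.69, SE 0.06, adjusted p = 7.94e-07), 1.16-fold at 1 h (-0.21, SE 0.06, 0.0108) and 1.46-fold at 18 h (-0.54, SE 0.06, 4.56e-06), lower in Nur77-KO each time. Without replicate 2 or without replicate 3 the 1 h difference was no longer called (adjusted p = 0.0865 and 0.0858, limma).

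Marco (ENSMUSG00000026390, chr1:120474538-120505024, minus strand) encodes the other class A receptor here, a binder of bacteria and particles. It was listed at 0 in all libraries at 0 h of both genotypes and in WT at 18 h. At 1 h it had 6.89, 26.2 and 26.05 tags in WT and 13.08, 11.91 and 14.2 in Nur77-KO. At 18 h the Nur77-KO libraries had 27.7, 31.2 and 63.9. Pol II over Marco was thus found at 18 h in the Nur77-KO libraries only, all of them, and at 1 h in all 6 libraries. It entered each of these tests only through the groups in which it was found, and its fitted changes depend on the pseudocount of 10, so no p-value is given for them.

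Cd36 (ENSMUSG00000002944, chr5:17781690-17888801, minus strand) encodes the class B receptor for oxidised lipoproteins and long-chain fatty acids. It carried 12424, 14331 and 14421 normalized Pol II tags in WT at 0 h, 1285, 1083 and 1319 after 1 h and 3227, 3318 and 3394 after 18 h. In Nur77-KO it carried 17584, 17221 and 19035 at 0 h, 2513, 2474 and 2496 after 1 h and 3279, 3330 and 3290 after 18 h. Nur77-KO libraries were all above WT at 0 h and 1 h, and the genotypes overlapped at 18 h. The mean fell 11.2-fold at 1 h in WT (log2 change -3.47, adjusted p = 7.21e-18, limma) and 7.19-fold in Nur77-KO (-2.84, 1.19e-16). At 18 h it was 4.14-fold and 5.44-fold below 0 h (-2.04, 2.25e-14 and -2.44, 1.54e-15). Nur77-KO was 1.31-fold higher at 0 h (0.39, SE 0.07, 0.00149) and 2.03-fold higher at 1 h (1.02, SE 0.07, 4.29e-09), and at 18 h the log2 difference was -0.01 (adjusted p = 0.966). The 0 h difference missed the threshold without replicate 1 (0.33, adjusted p = 0.0512). Since the inputs of 1 h held 857 and 847 tags, much of what WT had at 1 h was at input level, and the folds at 1 h were taken without subtracting it.

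Scarb1 (ENSMUSG00000037936, chr5:125277087-125341094, minus strand) encodes the class B receptor for high-density lipoprotein. It had 166, 204 and 163 tags in WT at 0 h, 19.3, 8.05 and 20.4 after 1 h and 104, 132 and 123 after 18 h. In Nur77-KO it had 222, 235 and 183 at 0 h, 17.2, 26 and 23.3 after 1 h and 74.8, 84.7 and 86.2 after 18 h. The dip at 1 h was seen in every library. It amounted to 11.2-fold in WT (log2 change -2.89, adjusted p = 5.63e-11, limma) and 9.63-fold in Nur77-KO (-2.80, 1.03e-10), and Pol II at 18 h was 1.49-fold and 2.61-fold below 0 h (adjusted p = 0.0142 and 5.58e-06). The WT call at 18 h was lost without replicate 1 (adjusted p = 0.0964) and with a pseudocount of 1 (0.0696), and within 500 bp of the start the change was -0.05 (0.833). No genotype difference was called, with log2 changes of 0.25 at 0 h (adjusted p = 0.5), 0.34 at 1 h (0.126) and -0.49 at 18 h (SE 0.18, 0.0589). At 18 h all 3 Nur77-KO libraries were nevertheless below all 3 WT libraries.

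Scarb2 (ENSMUSG00000029426, chr5:92441314-92506833, minus strand) encodes LIMP-2, the receptor that carries glucocerebrosidase to the lysosome. Its libraries ranged from 359 to 521 tags in WT at 0 h, 269 to 339 at 1 h and 505 to 747 at 18 h, and from 506 to 752, 401 to 457 and 686 to 778 in Nur77-KO. The regions over its end ran into Nup54 at 0 h and 18 h, 6954 to 10355 bp past Scarb2, and at 1 h only 1500 to 2504 bp past it, so these values hold signal of that neighbour. In WT the last of 4 equal segments had 6.76, 1.87 and 12.1 tags per kb at 0, 1 and 18 h, and the first 15.8, 12.2 and 15.5. Nur77-KO was above WT in every library only at 1 h, where the difference was 1.37-fold (log2 change 0.44, SE 0.16, adjusted p = 0.0303, limma). That call was lost with centred libraries (0.20, adjusted p = 0.305) without replicate 2 (0.133) or 3 (0.124) and within 500 bp of the start (0.16, 0.395). At 0 h and 18 h the differences were 0.41 (adjusted p = 0.149) and 0.26 (0.265). The fall at 1 h, 1.47-fold in WT and 1.44-fold in Nur77-KO (adjusted p = 0.00488 and 0.00828), turned to log2 changes of 0.26 and 0.08 with centred libraries (adjusted p = 0.108 and 0.647) and was not called without replicate 3 (0.112 and 0.154). The rise at 18 h in WT was 1.33-fold (adjusted p = 0.032), with overlapping groups, and was not called without replicate 1 (0.0558) or 2 (0.202) or within 500 bp of the start (-0.24, 0.166).

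Mrc1 (ENSMUSG00000026712, chr2:14229392-14332057, plus strand) encodes the mannose receptor, a lectin used as a marker of alternatively activated macrophages. It carried 5072, 5749 and 5808 normalized Pol II tags in WT at 0 h, 1449, 1312 and 1438 after 1 h and 105.52, 113.7 and 103.07 after 18 h. In Nur77-KO it carried 4704, 4829 and 5149 at 0 h, 2711, 2632 and 2597 after 1 h and 62.1, 62.4 and 67.9 after 18 h. The genotypes overlapped at 0 h, all Nur77-KO libraries were above WT at 1 h, and all were below WT at 18 h. At 1 h the mean fell 3.96-fold in WT (log2 change -1.98, adjusted p = 1.33e-14, limma) and 1.85-fold in Nur77-KO (-0.88, 1.41e-09). By 18 h it was 51.6-fold and 76.3-fold below 0 h (-5.56, 3.18e-20 and -6.05, 8.3e-21), the deepest fall among the receptors that were still above 0 at 18 h. Nur77-KO was 1.89-fold higher at 1 h (0.92, SE 0.07, 1.91e-08) and 1.68-fold lower at 18 h (-0.66, SE 0.07, 1.6e-06), while the 0 h difference was -0.18 (adjusted p = 0.143). All whole-gene values of 18 h lay below those of 5 of the 6 inputs, but the Pol II left then was almost all in the first of 4 equal segments. Whether it stood above background was not tested, and the folds and the genotype difference of that time rest on it.

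Stab1 (ENSMUSG00000042286, chr14:31139013-31168641, minus strand) encodes stabilin-1, which binds acetylated lipoprotein and phosphatidylserine. It overlaps the gene Nt5dc2, and its Pol II lay in called regions that also ran over neighbours. At 0 h and 18 h the region over Stab1 began 38690 to 39108 bp before its start and covered Nisch as well, and at 0 h it ran 22634 to 26080 bp past its end. Since tags are spread evenly over a region, the level of Stab1 at those times, its per-kb rank and its folds hold signal of these neighbours. At 1 h the region reached 2560 to 7793 bp before the start and still ran into Nisch in every library, so the 1 h values can hold signal of Nisch too. Stab1 carried 2666, 2934 and 2922 normalized tags in WT at 0 h, 214, 225 and 210 after 1 h and 2405, 2252 and 2579 after 18 h. In Nur77-KO it carried 2414, 2440 and 2278 at 0 h, 254, 225 and 267 after 1 h and 1635, 1864 and 1766 after 18 h. Pol II was low in every library at 1 h and had largely come back at 18 h. The fall at 1 h was 13.1-fold in WT (log2 change -3.65, adjusted p = 9.67e-18, limma) and 9.57-fold in Nur77-KO (-3.21, 5.98e-17), and from 1 h to 18 h the mean rose 11.1-fold and 7.07-fold. Nur77-KO was 1.37-fold lower at 18 h (-0.46, SE 0.07, 0.000249) and 1.19-fold lower at 0 h (-0.26, SE 0.07, 0.0473). The 0 h call was lost without replicate 1, 2 or 3 (adjusted p = 0.112, 0.165 and 0.307) and with a pseudocount of 1 (0.0532). At 18 h the Nur77-KO segments 1 to 3 had 67.3, 67.3 and 64.9 tags per kb against 78.7 in WT, and segment 4, where the long region stopped short in Nur77-KO, 31.6 against 78.7. Within 500 bp of the start the differences were not called at 0 h (-0.23, adjusted p = 0.113) or 18 h (-0.20, 0.157). At 1 h the difference was 0.19 and just missed the threshold (adjusted p = 0.0500124). Relative to 0 h, Stab1 at 18 h was 1.18-fold lower in WT (adjusted p = 0.00992, and 0.126 without replicate 2) and 1.35-fold lower in Nur77-KO (4.93e-05).

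Cd163 (ENSMUSG00000008845, chr6:124304656-124330527, plus strand) encodes the receptor for haemoglobin bound to haptoglobin. It had 446, 502 and 552 tags in WT at 0 h and 665, 631 and 615 in Nur77-KO. After LPS only 1 WT library (6.27) and 1 Nur77-KO library (6.81) at 1 h were above 0, and at 18 h all 6 were listed at 0. Every library at 0 h was thus far above every library after LPS, and since Cd163 entered the LPS tests only through the 0 h groups no p-value is given for the loss. At 0 h the Nur77-KO libraries were all above the WT libraries, 1.27-fold in the mean, but the difference was not called (0.35, SE 0.20, adjusted p = 0.364).

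Mertk (ENSMUSG00000014361, chr2:128698956-128802894, plus strand) encodes a receptor tyrosine kinase that binds the bridging proteins Gas6 and protein S on dying cells. It carried 1790, 2156 and 2018 normalized Pol II tags in WT at 0 h, 1482, 1428 and 1434 after 1 h and 5078, 5032 and 5144 after 18 h. In Nur77-KO it carried 2665, 2692 and 2921 at 0 h, 903, 917 and 890 after 1 h and 6113, 6030 and 6136 after 18 h. All Nur77-KO libraries were above WT at 0 h and 18 h and below WT at 1 h. The fall at 1 h was 1.37-fold in WT (log2 change -0.45, adjusted p = 1.34e-06, limma) and 3.06-fold in Nur77-KO (-1.60, 3.8e-14), and centring of the libraries turned the WT change into a called rise (0.35, adjusted p = 1.33e-06). At 18 h the mean was 2.56-fold above 0 h in WT (1.35, 7.95e-13) and 2.21-fold in Nur77-KO (1.14, 7.47e-12). Nur77-KO was 1.39-fold higher at 0 h (0.47, SE 0.06, 4.16e-05), 1.60-fold lower at 1 h (-0.68, SE 0.06, 1.38e-07) and 1.20-fold higher at 18 h (0.26, SE 0.06, 0.00406). The 18 h call was lost without replicate 2 (adjusted p = 0.0626) or 3 (0.0696). Within 500 bp of the start the genotype difference was 0.01 at 0 h (adjusted p = 0.986) and 0.18 at 18 h (0.572), neither called.

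Axl (ENSMUSG00000002602, chr7:25757273-25788705, minus strand) encodes the related kinase that binds Gas6. It had 179, 256 and 216 tags in WT at 0 h, 321, 329 and 307 after 1 h and 83.9, 72.2 and 76.2 after 18 h. In Nur77-KO it had 260, 211 and 194 at 0 h, 216, 221 and 221 after 1 h and 122, 135 and 143 after 18 h. The genotypes overlapped at 0 h, Nur77-KO was below WT in all libraries at 1 h, and above it in all at 18 h. Pol II rose 1.47-fold at 1 h in WT (log2 change 0.55, adjusted p = 0.000427, limma), and in Nur77-KO the change was -0.00 (adjusted p = 0.985). At 18 h it was 2.81-fold lower than at 0 h in WT (-1.37, 1.8e-08) and 1.66-fold lower in Nur77-KO (-0.69, 7.17e-05). At 1 h and 18 h the regions over the end of Axl ran 5882 to 23892 bp past it, into Hnrnpul1 in every library. At 0 h they ran 0 to 78670 bp past it. The values of Axl thus hold signal of that neighbour. At 18 h the first and last of 4 equal segments had 3.96 and 3.17 tags per kb in WT and 8.04 and 4.72 in Nur77-KO. Nur77-KO was 1.45-fold lower at 1 h (-0.52, SE 0.12, 0.00237) and 1.72-fold higher at 18 h (0.71, SE 0.12, 0.000379), with a difference of 0.03 at 0 h (adjusted p = 0.934). Within 500 bp of the start the 1 h difference was -0.61 (adjusted p = 0.166), and the WT changes were 0.73 at 1 h (0.0544) and -0.61 at 18 h (0.143), none called.

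**Figure D1:**
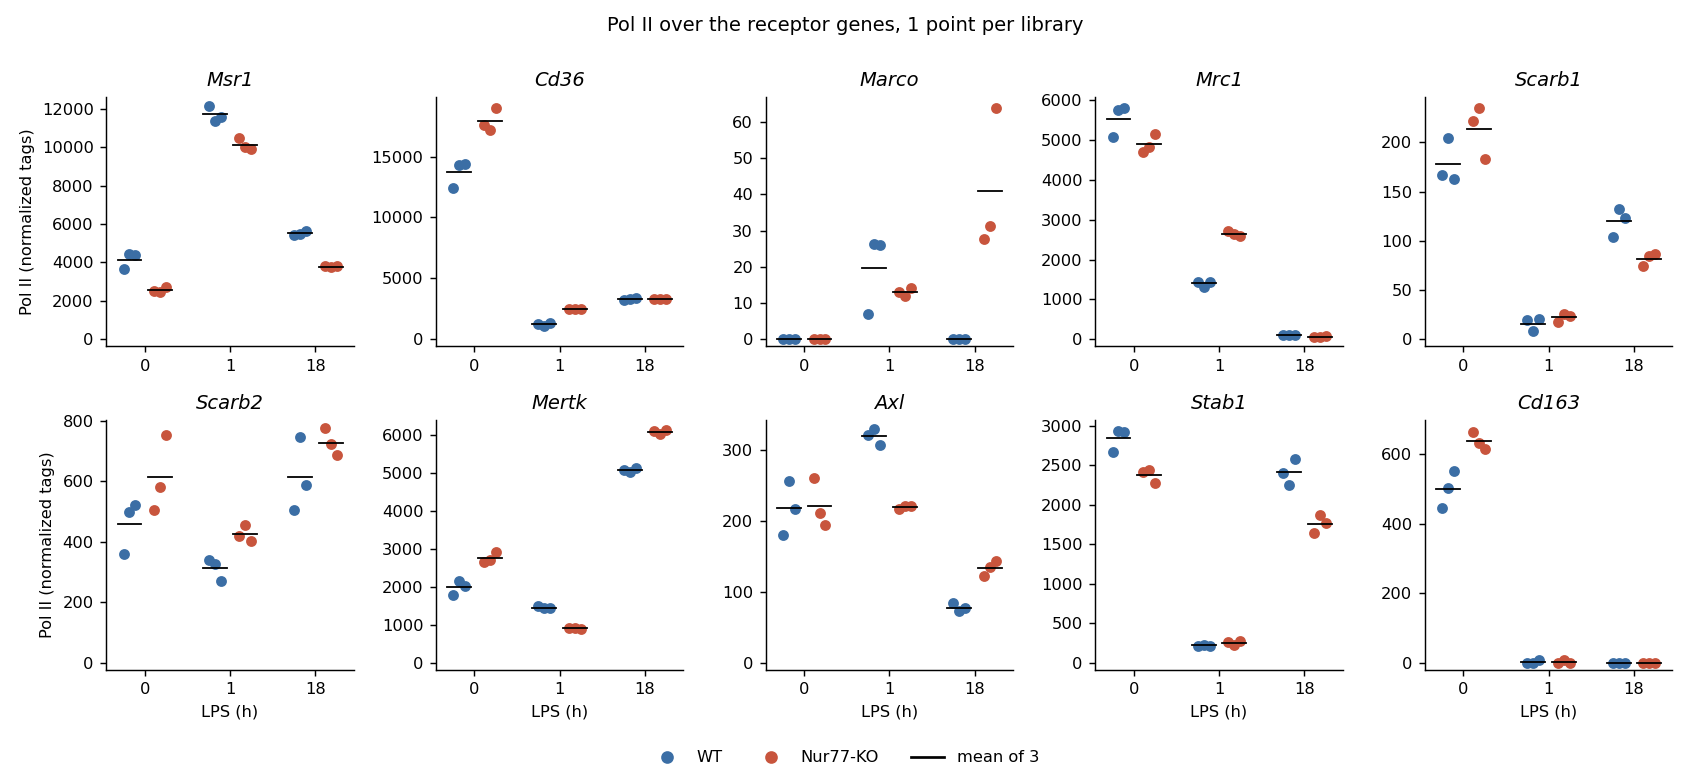
Normalized Pol II tags (y axis, linear, own scale per gene) over each receptor gene with 500 bp either side at 0, 1 and 18 h of LPS (x axis), 1 point per library and a bar at the mean of 3, WT in blue and Nur77-KO in red. Msr1 peaked at 1 h, Cd36, Scarb1 and Stab1 were lowest at 1 h, Mrc1 fell from 5543 to 107 tags at 18 h in WT, and Mertk was highest at 18 h.

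Across the receptors, the genotype difference in Pol II was called for 4 of 9 tested at 0 h, with Cd36 and Mertk higher and Msr1 and Stab1 lower in Nur77-KO. Over all 13230 genes tested, 6.89% were called (4.17% higher and 2.71% lower). At 1 h, 6 of 9 receptors were called, with Cd36, Mrc1 and Scarb2 higher and Msr1, Mertk and Axl lower, against 45.6% of 12079 genes (38.1% higher and 7.53% lower). At 18 h, 6 of 9 were called, with Marco, Mertk and Axl higher and Msr1, Mrc1 and Stab1 lower, against 20.9% of 12806 genes (7.55% higher and 13.4% lower). Marco, listed at 0 in WT, entered that test only through Nur77-KO, and without it 5 of 8 were called. The receptors' median log2 difference was 0.25 at 0 h, 0.19 at 1 h and, without Marco, -0.23 at 18 h, beside 0.04, 0.24 and -0.10 over all genes tested.

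The median genotype difference over all genes that centring the libraries took away was 0.25 at 1 h and -0.14 at 18 h. Over all genes, the share of calls that were higher in Nur77-KO then went from 83.5% to 42.7% at 1 h and from 36.1% to 66.2% at 18 h. Among the receptors, Msr1 at 1 h was -0.46, Cd36 0.77, Mrc1 0.67, Mertk -0.92 and Axl -0.77 on the centred scale, and each was still called. Averaged over the 3 times, 5 of 10 receptors were called, against 26.4% of genes (18.3% higher and 8.07% lower), and centring took the higher share of all calls from 69.4% to 53.2%. Msr1 at -0.48 (adjusted p = 3.16e-08, limma) and Stab1 at -0.17 (0.0062) were lower, and Cd36 at 0.47 (1.98e-07) and Scarb2 at 0.37 (0.00695) were higher. The remaining call was that of Marco, whose value rests on the groups at 0, and 4 of the 8 receptors found in every group were called. Without replicate 3 the averaged calls of Scarb2 and Stab1 were lost (adjusted p = 0.0559 and 0.0578). Msr1 was the receptor that was lower in Nur77-KO at all 3 times, and among the called differences those of Mertk and Axl changed sign between times. That of Mrc1 did too, with the limit given above for its 18 h values.

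**Figure D2:**
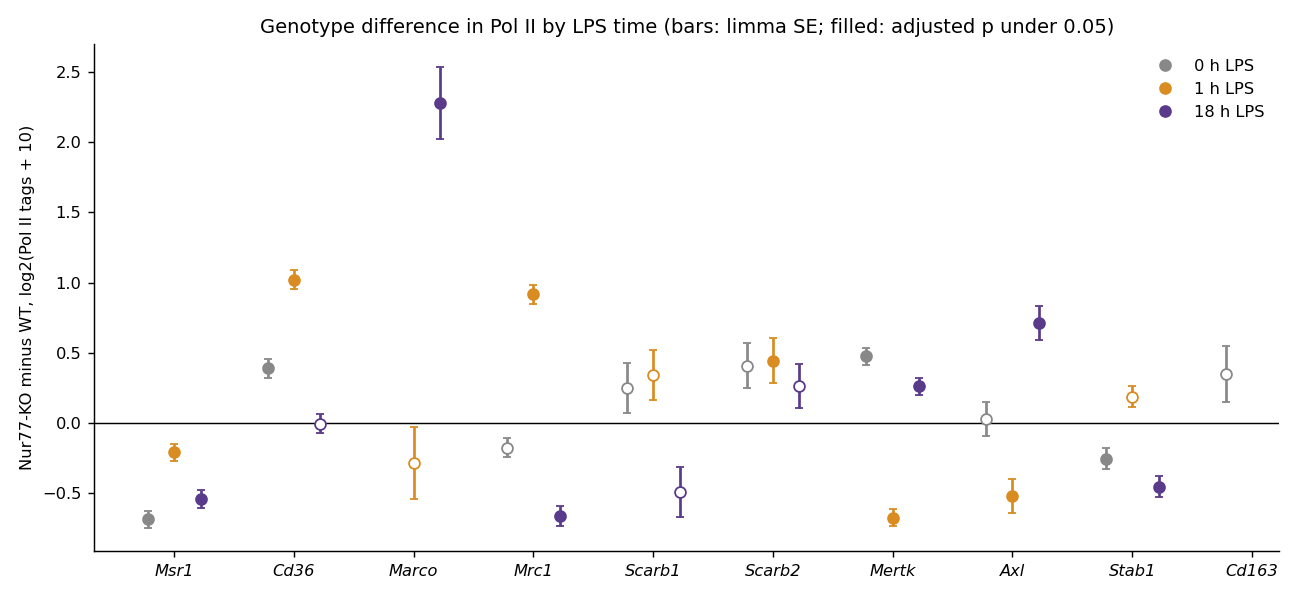
Difference between Nur77-KO and WT in log2(normalized Pol II tags + 10) (y axis) for each receptor (x axis) at 0 h, 1 h and 18 h of LPS, with bars for the limma standard error and filled points for an adjusted p under 0.05. The point of Marco at 18 h depends on the pseudocount, since WT was at 0 there. Msr1 lay below 0 at each time (-0.69, -0.21 and -0.54), whereas Mrc1 went from 0.92 at 1 h to -0.66 at 18 h and Mertk from -0.68 to 0.26.

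Whether the LPS change itself differed between genotypes was tested as an interaction, the LPS change in Nur77-KO minus that in WT. At 1 h, 6 of 10 receptors were called, 4 higher and 2 lower, none of them Marco or Cd163, where 18.4% of genes were called (14.2% higher and 4.22% lower). With centred libraries the higher share of those gene calls went from 77.1% to 34.1%. Mrc1, whose fall was smaller in Nur77-KO, had the largest positive interaction at 1.09 (SE 0.10, adjusted p = 1.01e-06, limma), which was 0.28 and not called within 500 bp of its start (0.431). On the log2 scale Cd36 (0.63, SE 0.10, 0.000322) and Stab1 (0.44, SE 0.11, 0.00791) likewise fell less in Nur77-KO, and Msr1 rose more (0.48, SE 0.09, 0.00125). Such interactions compare ratios and not changes in tags, and for these genes the genotypes already did not overlap at 0 h. Mertk fell more in Nur77-KO (-1.15, SE 0.08, 1.15e-07), and Axl did not rise there as it did in WT (-0.55, SE 0.17, 0.034). Axl was not called without replicate 1, 2 or 3 (adjusted p = 0.216, 0.103 and 0.108), Msr1 not without replicate 2 (0.103), and Stab1 not without replicate 3 (0.166) or with centred libraries (0.157). Within 500 bp of the start those of Axl (-0.36, 0.721), Stab1 (0.36, 0.058) and Mertk (0.18, 0.641) were not called either. For Scarb1 and Scarb2 the adjusted p was 0.842 and 0.938.

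At 18 h, 4 of 10 receptors had an interaction, 2 in each direction, and 3 of 8 without Marco and Cd163, against 14.8% of genes (4.86% higher and 9.95% lower), and centring took the higher share of gene calls from 32.8% to 63.5%. Cd36 fell further in Nur77-KO (-0.39, SE 0.10, adjusted p = 0.0116, limma). The value of Mrc1 was -0.49 (SE 0.10, 0.00234), with the limit given above for its values of 18 h. Axl fell less (0.68, SE 0.17, 0.0125). The call of Marco rests on its Nur77-KO libraries at 18 h, the only ones of the groups compared in which it was found. Without single replicates Cd36 (adjusted p = 0.101 without 1 and 0.112 without 3), Mrc1 (0.0523 without 2) and Axl (0.213 without 2 and 0.212 without 3) missed the threshold, and within 500 bp of the start Mrc1 (-0.13, 0.789) and Axl (0.25, 0.849) did. Scarb1 had -0.74 (adjusted p = 0.0592), Mertk -0.21 (0.0986), Stab1 -0.20 (0.218) and Msr1 0.14 (0.289).

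Pol II along the genes was read in 4 segments of equal length, numbered from the start (segment 1) to the end (segment 4) of each gene, as normalized tags per kb. HOMER gives a total per region, and its tags were here spread evenly over the region. Positions inside a long region are therefore not resolved, as in segments 1 to 3 of Msr1, which all had 82.8 in WT at 0 h. Over Mertk in WT the segments had 28.1, 15.5, 13.3 and 18.5 at 0 h and 28.1, 20.2, 6.20 and 0.69 at 1 h. In Nur77-KO they had 32.1, 26, 21.4 and 25.4 at 0 h and 21.5, 11.2, 1.21 and 0.20 at 1 h. Pol II at 1 h was thus nearly gone from the end in both genotypes. Segment 1 kept its level in WT and fell from 32.1 to 21.5 in Nur77-KO. At 1 h Nur77-KO was 1.31-, 1.81-, 5.11- and 3.46-fold lower than WT along the 4 segments. Within 500 bp of the Mertk start, WT had 24.6, 30.4 and 29.5 tags at 1 h and Nur77-KO 26.2, 43 and 32.9. There the genotypes overlapped and the log2 difference was 0.19 (adjusted p = 0.285, limma), of opposite sign to the gene as a whole.

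Mrc1 in WT had 71.4, 71.4, 32.1 and 38.9 normalized tags per kb at 0 h and 10.7, 6.57, 12.4 and 23.9 at 1 h. In Nur77-KO it had 61.6, 61.6, 29.7 and 36 at 0 h and 23.1, 19, 25.3 and 34.4 at 1 h. Here the fall at 1 h was larger in the 5′ part than at the 3′ end, where WT fell from 38.9 to 23.9 and Nur77-KO went from 36 to 34.4, the reverse order to Mertk. Nur77-KO was above WT at 1 h by 2.17-, 2.90-, 2.04- and 1.44-fold along the segments. At 18 h WT had 3.55 in segment 1 and at most 0.07 in the others, and Nur77-KO had 1.97 and 0. Within 500 bp of the Mrc1 start the genotype difference was 0.09 at 1 h (adjusted p = 0.604, limma) and -0.32 at 18 h (0.192).

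Cd36 had little Pol II in segment 1, 17.8 tags per kb in WT and 18.6 in Nur77-KO at 0 h, and most in segments 2 to 4, with 163, 187 and 142 in WT and 208, 239 and 200.2 in Nur77-KO. Pol II within 500 bp of its outermost annotated start was listed at 0 in all 18 libraries, and the RefSeq window shown above lies near the middle of the gene. Axl at 1 h had 25.2, 10.4, 0.67 and 1.98 in WT and 18.3, 7.59, 0 and 0.31 in Nur77-KO, so nearly all of its signal lay in segments 1 and 2. Stab1 at 1 h had 24.6 and 2.97 in segments 1 and 2 of WT, 28 and 3.61 in those of Nur77-KO, and 0 in the others. Cd163 at 0 h had 23.1, 29.7, 24.4 and 0 in WT and 34, 34, 28.2 and 0 in Nur77-KO. Near the Cd163 start alone, WT had 5.26, 0 and 9.83 tags and Nur77-KO 35.7, 25.8 and 32.7, without overlap.

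**Figure D3:**
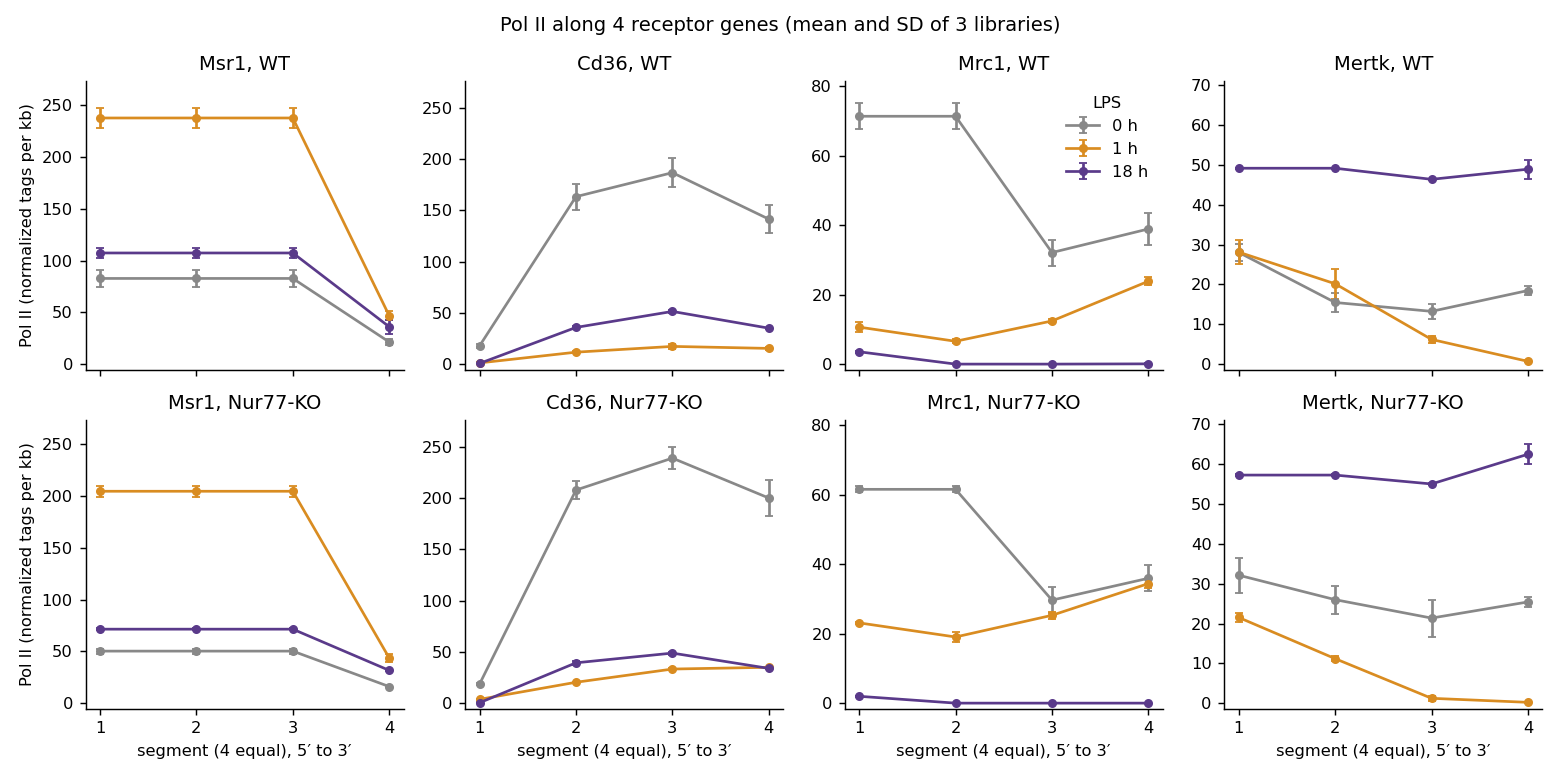
Mean normalized Pol II tags per kb (y axis, with SD of 3 libraries) in 4 equal segments of Msr1, Cd36, Mrc1 and Mertk from 5′ to 3′ (x axis), WT above and Nur77-KO below, with 1 line per LPS time that only joins the segments. At 1 h Mertk declined from 28.1 to 0.69 along the gene in WT, whereas Mrc1 rose from 10.7 to 23.9.

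H3K27ac at the outermost gene start was tested for 7 or 8 receptors. Cd36 had a value there in only 2 libraries (25.6 tags in Nur77-KO replicate 1 at 18 h and 2.27 in Nur77-KO replicate 3 at 0 h) and Cd163 had next to none, and both are described at inner starts. Between genotypes, 0 of 7 receptors were called at 0 h (1 at an unadjusted p under 0.05, Mrc1), 1 of 7 at 1 h and 1 of 8 at 18 h. The corresponding shares of all genes were 0.77% (0.465% higher and 0.305% lower), 18.2% (11% higher and 7.26% lower) and 3.2% (0.951% higher and 2.25% lower). Averaged over times, 1 of 8 was called against 6.88% (3.72% higher and 3.16% lower). Of the interactions 0 of 7 were called at 1 h (4 at an unadjusted p under 0.05) against 0.535% (0.0987% higher and 0.436% lower), and 0 of 8 at 18 h (0 unadjusted) against 0.605% (0.149% higher and 0.456% lower). Median differences of the receptors, without Marco, were -0.08, 0.28 and -0.52 at 0, 1 and 18 h beside 0.06, 0.05 and -0.04 over all genes. Centred libraries took the higher share of the calls over all genes from 60.4% to 42.6% at 0 h, from 60.2% to 45.3% at 1 h, from 29.7% to 52.9% at 18 h, and for the interactions from 18.5% to 35.1% and from 24.7% to 58.6%.

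The libraries that stood apart bore on these counts. Without them, 3 of the receptors were called at 0 h, 6 at 1 h and 3 at 18 h, 2 on average over times and 7 for the interaction at 1 h, where the shares of all genes were 10.2%, 59.8%, 18.9%, 38.1% and 47.8%. The interaction at 18 h had 0, with 14.3% of genes called. Leaving out replicate 2 or replicate 3, which keeps both of these libraries, removed 13 of 20 and 12 of 21 H3K27ac calls of the receptors, and leaving out replicate 1 removed 1 of 20.

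At the Msr1 start, H3K27ac was 742, 906 and 797 normalized tags in WT at 0 h, 1350, 1360.1 and 1295 after 1 h and 1293, 1339 and 1305 after 18 h. In Nur77-KO it was 633, 619 and 636 at 0 h, 1315, 782 and 703 after 1 h and 380.2, 860 and 972 after 18 h, replicate 1 first. Nur77-KO was below WT in every library at 0 h and 18 h, and at 1 h replicate 1, which stood apart, lay within the WT range. The difference averaged over times was -0.62 (SE 0.15, adjusted p = 0.0237, limma), the same direction as Pol II over Msr1, and was not called without replicate 2 (0.373) or 3 (0.218). Per time it was -0.36 (0.745), -0.57 (0.131) and -0.93 (0.062), and without both libraries -0.36 (0.0061), -0.84 (5.72e-07) and -0.52 (0.000529). LPS raised it in WT at 1 h (0.71, adjusted p = 0.0306) and 18 h (0.69, 0.0391), calls that centring took to 0.0514 and 0.0733 and that were also lost without replicate 2 (0.142 and 0.165) or 3 (0.124 and 0.154). In Nur77-KO the changes were 0.51 (0.123) and 0.12 (0.73), and without both libraries 0.23 (0.0201) and 0.53 (3.14e-05).

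H3K27ac at the Mrc1 start was 500.3, 361 and 452 tags in WT at 0 h, 176, 200.5 and 196 after 1 h and 193, 146 and 202 after 18 h. In Nur77-KO it was 307, 258 and 224 at 0 h, 173, 397 and 307 after 1 h and 147, 117 and 143 after 18 h. All Nur77-KO libraries were below WT at 0 h, and at 1 h replicates 2 and 3 were above WT and replicate 1 was not. LPS lowered it in WT at 1 h (-1.14, adjusted p = 0.00043, limma) and 18 h (-1.23, 0.000252) and in Nur77-KO at 18 h (-0.90, 0.00305), with 0.08 in Nur77-KO at 1 h (0.785), which was 0.41 (0.0436) without both libraries. Its interaction at that time was 1.23 (adjusted p = 0.0754), and 1.55 (5.97e-05) without both libraries. Without them the genotype difference was -0.71 at 0 h (adjusted p = 0.00702) and 0.84 at 1 h (0.000499), beside -0.71 (0.213) and 0.51 (0.109) with all 18.

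H3K27ac at the Stab1 start was 716, 664 and 745 tags in WT at 0 h, 262, 262 and 249.7 after 1 h and 955, 871 and 923 after 18 h. In Nur77-KO it was 619, 601 and 593 at 0 h, 256, 381 and 322 after 1 h and 502, 704 and 723 after 18 h. It dipped at 1 h and returned at 18 h in both genotypes, as Pol II did, and all Nur77-KO libraries at 18 h were below WT. The fall at 1 h was called in both (log2 change -1.42, adjusted p = 2.92e-07 in WT and -0.92, 3.93e-05 in Nur77-KO, limma). The 18 h genotype difference was -0.52 (SE 0.13, 0.0392), which was -0.36 (0.0031) without the libraries that stood apart and not called with centred libraries (0.0798) or without replicate 2 (0.199) or 3 (0.253). The rise of WT at 18 h (0.37, 0.0289) was lost without replicate 2 (0.13) or 3 (0.142).

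At Mertk, H3K27ac was 260.3, 251 and 267 in WT at 0 h, 169, 176 and 185 after 1 h and 376, 402 and 236 after 18 h, against 293, 308 and 306, 143, 137 and 136, and 88, 342 and 348 in Nur77-KO. With all 18 libraries the fall of Nur77-KO at 1 h was called (-1.07, adjusted p = 0.0166, limma) and that of WT was not (-0.53, 0.198), and the first was lost without replicate 2 (0.127) or 3 (0.104). Without both libraries the fall was called in Nur77-KO (-1.09, 1.42e-05) and in WT (-0.53, 0.002), as was the rise of WT at 18 h (0.33, 0.0326). At Axl it was 161, 148 and 127 in WT at 1 h and 118, 75.7 and 69.8 in Nur77-KO, with no overlap (-0.69, SE 0.20, 0.0304). That call was lost without replicate 2 (0.482) or 3 (0.358), and without the libraries that stood apart the difference was -0.90 (0.00011). Pol II over Axl differed in the same direction at 1 h.

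Scarb2 was at 280.1, 278 and 299.9 in WT at 1 h and 295, 423 and 422 in Nur77-KO (0.38, adjusted p = 0.0502, limma, and 0.55, 5.58e-06, without both libraries). Scarb1 was at 81.8, 118 and 96.5 in WT and 93.4, 164.5 and 162 in Nur77-KO at 1 h, with 0.44 (0.0802) and, without both, 0.69 (0.000133). In each of these, replicate 1 of Nur77-KO lay within the WT values and replicates 2 and 3 above them. Marco reached 6.95, 6.23 and 0 tags in Nur77-KO at 18 h and was 0 elsewhere, so it entered the tests through that group alone and no p-value is given.

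With LPS, H3K27ac calls of the receptors were 6 of 7 at 1 h in WT, 2 higher and 4 lower, against 54.5% of genes (25.2% higher and 29.2% lower). At 18 h in WT they were 4 of 7, 2 in each direction, against 49.9% (23.5% higher and 26.4% lower). In Nur77-KO they were 3 of 7 at 1 h, all lower, against 46.9% (20.4% higher and 26.6% lower), and 5 of 8 at 18 h, 1 higher and 4 lower, against 52.6% (18.4% higher and 34.2% lower), or 4 of 7, all lower, without Marco. Without the libraries that stood apart, the counts were 7 of 7 at 1 h and 6 of 7 at 18 h in WT, against 70.6% and 68.2% of genes, and 6 of 7 at both times in Nur77-KO, against 62.5% and 68%. At 1 h in Nur77-KO 3 of those 6 were then higher, Msr1, Mrc1 and Scarb2. Scarb1 fell in WT at 1 h (-1.02, adjusted p = 0.000114, limma), and in Nur77-KO at 1 h (-0.51, 0.0219) and 18 h (-0.67, 0.00374). Scarb2 fell in WT at 1 h (-0.44, 0.00839) and 18 h (-0.56, 0.0019), and Axl rose in WT at 1 h (0.70, 0.00847). In Nur77-KO at 18 h Scarb2 (-0.40, 0.0162) and Axl (-0.56, 0.0306) fell. Without both libraries, Scarb1 in Nur77-KO at 1 h was no longer called (-0.27, 0.0575), while Scarb2 (0.19, 0.0216) was called higher and Axl (-0.36, 0.0494) lower in that comparison. At 18 h Axl was then called lower in WT (-0.47, 0.00566) and Stab1 higher in Nur77-KO (0.24, 0.00776). Leaving out a replicate raised the adjusted p of Scarb1 in Nur77-KO to at most 0.0782, of Scarb2 to at most 0.173 and of Axl to at most 0.159. When the whole locus with 20 kb either side was summed, the WT change of Scarb2 at 1 h turned to a called rise of 0.17 (limma adjusted p = 0.0239). Its change at 18 h turned to 0.01, and that of Axl at 1 h to -0.16, neither called.

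Cd36 and Cd163 carried H3K27ac at starts inside the gene. At the Cd36 start 53105 bp from the outermost one, WT had 671, 761 and 681 tags at 0 h, 390.01, 349 and 342 after 1 h and 704, 679 and 673 after 18 h. Nur77-KO had 779, 681 and 792, then 326, 463 and 437, then 874, 631 and 612. At that start the 3 WT libraries of 18 h lay within the WT range of 0 h, and the Nur77-KO libraries of 18 h lay on both sides of theirs. Over the whole H3K27ac region around it, chr5:17805911-17860209, the mean of 18 h was lower than that of 0 h in both genotypes, 4306 against 6528 tags in WT and 4643 against 7286 in Nur77-KO. At the Cd163 transcript start 15831 bp inside the gene, WT had 343, 347 and 297 tags at 0 h, 70.7, 58.8 and 56 after 1 h and 0, 17.5 and 15.6 after 18 h, and Nur77-KO had 347, 357 and 381, then 88.6, 54.7 and 64.3, then 0, 7.51 and 8.83. Both groups at 0 h were far above all libraries after LPS, as for Pol II.

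**Figure D4:**
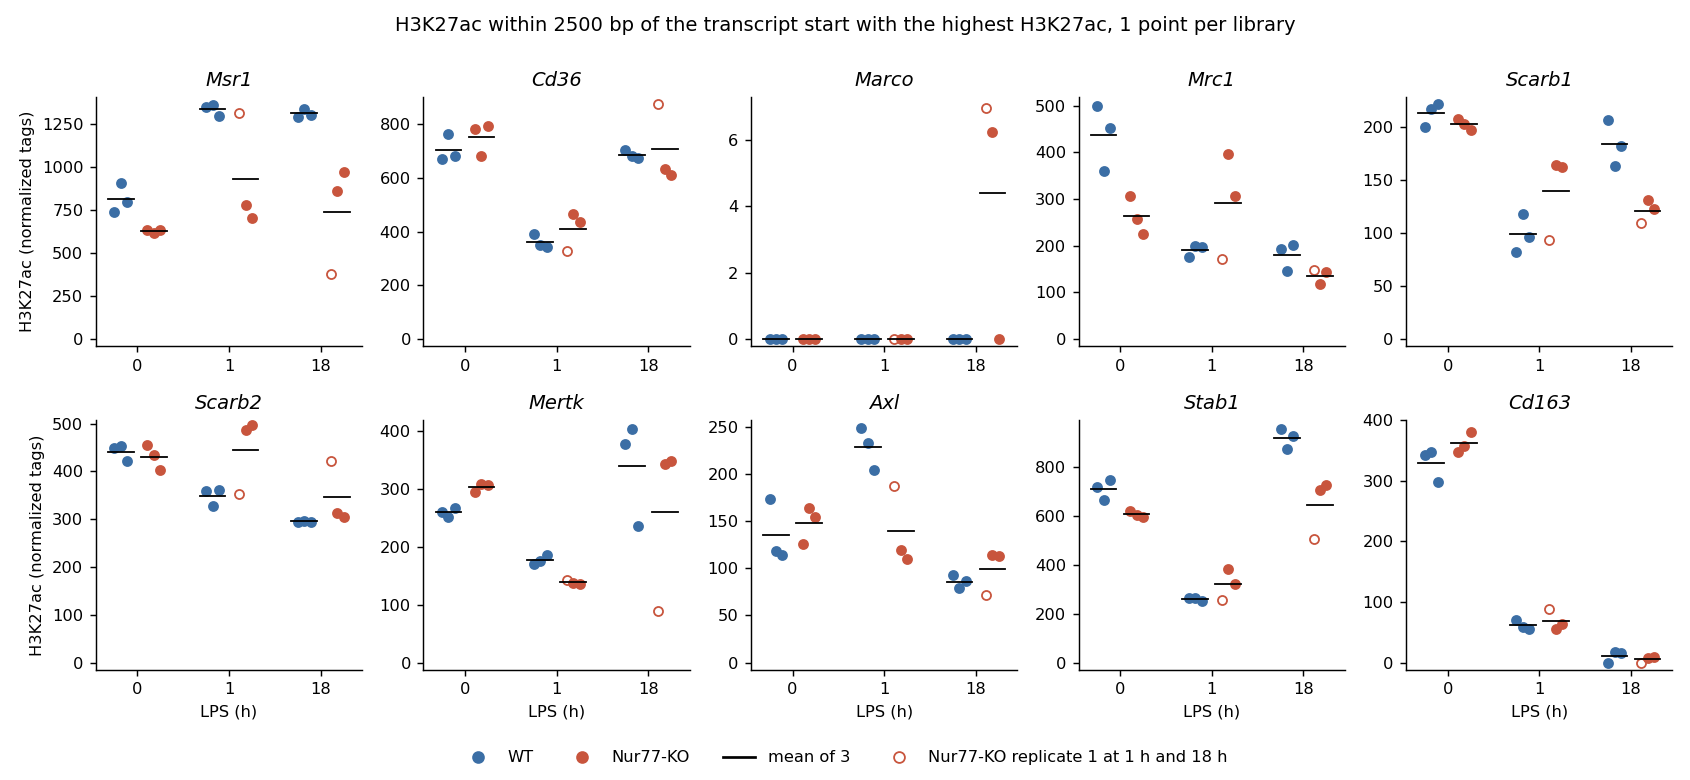
Normalized H3K27ac tags (y axis, linear, own scale per gene) within 2500 bp of the annotated transcript start with the highest mean H3K27ac of each receptor at 0, 1 and 18 h of LPS (x axis), 1 point per library and a bar at the mean of 3. Open points are the Nur77-KO libraries of replicate 1 at 1 h and 18 h, which stood apart. Stab1 dipped at 1 h in both genotypes, and Cd163 fell from 297 to 381 tags at 0 h to at most 17.5 at 18 h.

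H3K27ac regions also lay far inside the genes, from 2 in Axl to 12 in Mertk, with 9 in Mrc1, 8 in Cd36, 7 in Scarb1, 6 in Scarb2, 5 in Msr1 and 3 each in Cd163 and Stab1. The region of Msr1 farthest from the start, 47441 bp from it, was singled out after its values were seen and is given as a description. It lies at chr8:39593632-39596832 and was found in all 18 libraries. WT had 57.8, 66.3 and 56.4 tags at 0 h, 70, 76.3 and 65.6 after 1 h and 45.2, 54.8 and 43.8 after 18 h. Nur77-KO had 203, 205.8 and 196.1 at 0 h, 268.5, 140.9 and 153.9 after 1 h and 52.4, 123.8 and 106.1 after 18 h. At 0 h and 1 h every Nur77-KO library was above every WT library, the opposite direction to the Msr1 start and to Pol II over the gene. At 18 h only the library that stood apart was within the WT range.

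Of the other Msr1 regions, that at chr8:39614160-39629962 had 587.1, 563.7 and 590.8 tags in Nur77-KO and 355.2, 404.08 and 333.2 in WT at 0 h, also without overlap. There the genotypes overlapped at 1 h (1013.9, 675.9 and 665.24 against 703, 664.5 and 697.42) and at 18 h (163.4, 312.2 and 277.9 against 295, 280.69 and 305.5). A region downstream of the gene, at chr8:39575194-39577464, had 76.1, 77.1 and 91.7 against 60.7, 52.9 and 38.8 at 0 h, and Nur77-KO was above WT there in the 1 h libraries as well. Another region inside the gene, at chr8:39598303-39611390, had 530.9, 531.5 and 574.1 in WT at 1 h and 546.3, 166.2 and 192.6 in Nur77-KO. There, replicate 1, which stood apart, lay within the WT range, and replicates 2 and 3 were far below it. In Cd163, the farthest region lay at chr6:124318863-124322964, 16257 bp from the start, and was found in 16 libraries. Of the 8 motif matches in both farthest regions 4 are printed, the NBRE, both PU.1 matches and 1 AP-1 match, with 20 bases either side and the motif in capitals, on the strand of the match, and all are intronic. They are the NBRE of Msr1 at chr8:39594744-39594791 (minus strand), the PU.1 motif of Msr1 at chr8:39594949-39594996 (minus strand), the PU.1 motif of Cd163 at chr6:124321471-124321518 (minus strand) and an AP-1 motif of Cd163 at chr6:124322845-124322891 (plus strand).
Msr1 NBRE: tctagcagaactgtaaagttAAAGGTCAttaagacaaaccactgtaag
Msr1 PU.1: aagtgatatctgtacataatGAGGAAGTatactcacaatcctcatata
Cd163 PU.1: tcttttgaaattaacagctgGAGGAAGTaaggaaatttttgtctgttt
Cd163 AP-1: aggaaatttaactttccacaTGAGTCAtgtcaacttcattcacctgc

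The Msr1 region of 3201 bp held 1 NBRE, 1 PU.1 and 2 AP-1 matches, where 15.7%, 24.1% and 67.2% of 65180 windows of the same length held at least 1. The Cd163 region of 4102 bp held no NBRE, 1 PU.1 and 3 AP-1 matches, where the shares were 19.8%, 28.3% and 75%. Matches of this frequency describe the sequence and do not show binding.

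Of 55 other genes of these pathways, 54 were annotated and 43 to 47 were tested per comparison. Pol II over them differed between genotypes for 6 higher and 3 lower of 46 at 0 h, beside 4.17% higher and 2.71% lower of all genes. At 1 h 22 were higher and 3 lower of 45, beside 38.1% and 7.53%, or 20 and 2 of the 41 found in both groups. At 18 h 3 were higher and 15 lower of 44, beside 7.55% and 13.4%. Stab2, the paralog of Stab1, had 400.3 tags in Nur77-KO and 230.2 in WT at 0 h (0.79, adjusted p = 0.0246, limma), and the transcription factor gene Irf4 had 114 and 48.1 (1.08, 0.00439). Elmo1, an adaptor of engulfment signalling, had 1236 and 1884 (-0.59, 0.00271), and the lipid receptor gene Cd300lf had 102 and 178 (-0.75, 0.00577). At 1 h, Abcg1, which exports cholesterol, had 1109 tags in Nur77-KO and 1592 in WT (-0.52, 8.63e-06), in the direction of Mertk. Of 11 genes of lipid handling, 7 were higher and 1 lower in Nur77-KO at 1 h, a comparison in which 38.1% of all genes were higher and in which centring took the higher share of all calls to 42.7%. At 18 h, 1 of 7 bridging ligand genes was higher, Thbs1 (958 against 591, 0.69, 0.00179), and 4 were lower, among them C1qa (45.8 against 281, -2.32, 2.33e-06).

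With LPS for 1 h in WT, 6 of 7 bridging ligand genes were called lower, where 68.3% of all genes were, with Gas6, the ligand of Axl and Mertk, at a mean of 636 tags at 0 h and 1.95 at 1 h. Gas6 and Mfge8 entered that test only through the 0 h group, and without them 4 of 5 were called lower. Pparg, a nuclear receptor known to drive Cd36, went from 2749 to 20.2 in WT (-6.51, adjusted p = 1.2e-18, limma) and from 2775 to 42.6 in Nur77-KO (-5.73, 5.39e-18). The scavenger receptor gene Olr1 went from a mean of 2.24 to 1455 in WT, and Itgav, an integrin subunit of efferocytosis, rose from 1220 to 12985 (3.40, 7.11e-15). At 18 h in WT, 9 of 11 lipid handling genes were higher and 2 lower, beside 33.2% and 33.3% of all genes, and Pparg was at 189 (-3.80, 2.66e-15).

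H3K27ac at the starts of the other genes was called higher in Nur77-KO for 12 of 45 at 1 h and lower for 0, beside 11% and 7.26% of all genes. At 0 h it was called for 0 of 45 (2 at an unadjusted p under 0.05), beside 0.77% of all genes. At 18 h it was called for 0 of 43 (6 unadjusted), beside 3.2%. Without both libraries that stood apart, 20 were higher and 15 lower at 1 h, where 59.8% of all genes were called. At 0 h 2 were then higher and 0 lower, beside 10.2% of genes, and after 18 h 2 were higher and 6 lower, beside 18.9%. Lrp1, a receptor for lipoproteins and dying cells, had 550.3 tags in Nur77-KO and 278 in WT at 1 h (0.89, adjusted p = 0.00663, limma, and 1.22, 3.73e-08, without both).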

How the data were processed

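ChIP-seq libraries of Pol II and H3K27ac were grouped by genotype and LPS time from the sample titles, with 3 libraries per group and antibody. Per the article and the labels, reads were trimmed with Skewer, aligned to mm10 with HISAT2 2.1.0 and stripped of duplicates in HOMER. Regions were called per library without input, from 500 bp windows at a Poisson p of 0.001 stitched within 1000 bp. The deposited signal of a region is its tags per 10 M (mega) tags of the library, and uncalled stretches count as 0, so a sum moves with how much of a gene passed the search. HOMER's other deposited columns were not used.

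Tags of a region were shared by overlap over each GENCODE vM21 gene (54 genes with duplicate symbols left out) and summed over the gene with 500 bp for Pol II and within 2500 bp of its start for H3K27ac. Log2(normalized tags + 10) was fitted with limma 3.58.1 (R 4.3.3) with 6 group means over the 18 libraries of an antibody, for genes above 0 in 2 or more of the 3 libraries of either group. A Benjamini-Hochberg adjusted p under 0.05 over all genes tested was a call. Folds are ratios of group means of normalized tags, and log2 changes understate those of low values. Whole tags could not be recovered from the signal, so no count model was run. The fitting steps were tested on simulated data. Tables and plots used Python 3.11.15, pandas 2.3.3, numpy 2.4.6 and matplotlib 3.10.9.

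The receptors, gene lists and tests were chosen with earlier results of these data known. Named genes were the 10 receptors, Nr4a1, of the other pathway genes at most 2 called per direction and comparison with the largest log2 change and no overlap between groups, and the 2 genes most like each receptor. Alternatives were a pseudocount of 1, no filter, centred libraries, a common density floor, a replicate block, other windows and starts, and leaving out each replicate or both H3K27ac libraries that stand apart. Results of 2 further marker lists are not reported here.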

Additional observations from a re-analysis of the deposited data

Results flagged for a closer look

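For 6 receptors the change in Pol II after 1 h of LPS differed between Nur77-KO and WT by the test of the difference itself (limma, adjusted p under 0.05, 18.4% of all genes called). The differences in log2 change were 0.478 for Msr1, 0.632 for Cd36, 1.09 for Mrc1, 0.443 for Stab1, -1.15 for Mertk and -0.550 for Axl. After 18 h the difference was called for 4 receptors (14.8% of all genes), at -0.394 for Cd36, -0.486 for Mrc1, 0.680 for Axl and 2.28 for Marco. Marco entered that test only through the Nur77-KO libraries of 18 h and was listed at 0 in the other groups compared, so its value depends on the pseudocount and carries no support. The calls of Axl at both times, Msr1 and Stab1 at 1 h and Cd36 and Mrc1 at 18 h were lost without single replicates. Within 500 bp of the start Mertk at 1 h turned to 0.18 and Mrc1 at 1 h to 0.28, neither called. Single values far from their group were not tested, because every group held 3 libraries, and the 2 H3K27ac libraries that stand apart were found by correlation over all genes.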

How the results depend on the processing

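Leaving aside 11 calls of Marco and Cd163 that rest on a group at or near 0, 33 of 78 calls of single receptors held under every alternative that gave a value. Over all alternatives 508 of their Pol II values kept their direction and side of the threshold, 54 missed the threshold and 7 reversed. For H3K27ac these numbers were 199, 38 and 3.

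For Pol II, counts of receptors called within 500 bp of the gene start were 2 at 0 h, 1 at 1 h, 1 at 18 h and 2 averaged for Nur77-KO against WT, 6 and 5 for LPS at 1 h and 18 h in WT, 5 for LPS at 18 h in Nur77-KO, and 2 and 1 for the interactions at 1 h and 18 h. The shares of all genes called in those fits were 2.7%, 23.4%, 4.81% and 11.6%, then 61.2%, 39.6% and 41.7%, then 3.59% and 2.35%. In that window Mertk reversed to 0.19 for Nur77-KO against WT at 1 h, 0.0496 for LPS at 1 h in Nur77-KO and 0.18 for the interaction at 1 h, and Scarb2 to -0.24 for LPS at 18 h in WT. With centred libraries, LPS at 1 h reversed to 0.35 for Mertk in WT, called as a rise (limma adjusted p = 1.33e-06), and, without a call, to 0.26 and 0.076 for Scarb2 in WT and Nur77-KO. The cause was not tested.

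For H3K27ac, the counts for Nur77-KO against WT became 2 at 1 h and 0 at 18 h with centred libraries, and 2 at 1 h, 2 at 18 h and 2 averaged over the whole locus with 20 kb, where 20.2% and 2.9% and then 32.2%, 10.2% and 15.2% of genes were called. Over the locus the count was 10 for LPS at 1 h in Nur77-KO and 1 for the interaction at 18 h (55% and 2.98% of genes). There Scarb2 reversed to 0.17 at 1 h in WT, called as a rise (limma adjusted p = 0.0239). Without a call, Scarb2 reversed to 0.00748 at 18 h and Axl to -0.16 at 1 h in WT. At the start with the highest H3K27ac, LPS at 1 h in Nur77-KO gave 5 (47.6% of genes). Without both libraries that stand apart, Nur77-KO against WT gave 3, 6, 3 and 2 at 0, 1 and 18 h and averaged, LPS at 1 h in Nur77-KO gave 6 and the interaction at 1 h gave 7, where 10.2%, 59.8%, 18.9%, 38.1%, 62.5% and 47.8% of genes were called.

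Leaving out each replicate number in turn gave, for Pol II, 2 to 3 calls at 0 h, 4 to 6 at 1 h, 5 to 6 at 18 h and 3 to 5 averaged for Nur77-KO against WT. The LPS counts were 9 to 10 and 7 to 9 at 1 h and 18 h in WT and 8 to 9 and 9 to 9 in Nur77-KO, and the interaction counts 4 to 5 and 2 to 3. For H3K27ac the ranges in the same order were 0 to 1, 0 to 6, 0 to 3 and 0 to 1, then 3 to 7 and 1 to 6 in WT, 1 to 6 and 2 to 6 in Nur77-KO, and 0 to 6 and 0 to 0. In these fits each group is left with 2 libraries. The shares of all genes called for Pol II between genotypes were 3.76% to 4.24%, 26.5% to 37.7%, 11.3% to 14.2% and 14.4% to 18.2%. For LPS they were 82.3% to 85.5% and 59.3% to 60.4% in WT and 78.2% to 79% and 63.3% to 64% in Nur77-KO. Interactions had 4.77% to 16.2% and 7.52% to 8.21%. For H3K27ac the shares in the same order were 0.171% to 2.85%, 0.209% to 55.7%, 0.407% to 12.5% and 0.537% to 30.4%. LPS gave 35.1% to 64.8% and 30.1% to 61% in WT and 26% to 58.2% and 32.9% to 64.8% in Nur77-KO, and the interactions 0% to 40.4% and 0.00839% to 4.82%.

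Libraries of the same replicate number showed little shared deviation in the same direction. Their correlations were -0.0713 to 0.107 for Pol II, with 1 of 45 over 0.1, and -0.432 to 0.0796 for H3K27ac. The lowest for H3K27ac were those between Nur77-KO at 1 h and at 18 h, the groups of the libraries that stand apart. They were -0.432, -0.347 and -0.416 for replicates 1, 2 and 3. The replicate block took the Pol II count for Nur77-KO against WT at 0 h from 4 to 3, losing Stab1 (adjusted p = 0.0672, limma), and the H3K27ac count for LPS at 18 h in WT from 4 to 3, losing Msr1 (0.0547). It changed no other call.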

Other observations

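As a description over the 18 Pol II libraries and 13673 other genes, with groups of 3 libraries that share their condition, the genes whose log2 Pol II was most like that of each receptor were the following. Mertk was most like the cholesterol exporter gene Abcg1 (Pearson r 0.998) and Themis2 (0.987). Stab1 was most like Gusb (0.997) and Nisch (0.997), the second of which lies 2288 bp from it and shares its called Pol II region, so both hold the same tags in part. Mrc1 was most like Fat3 (0.996) and Gripap1 (0.995), and Cd163 like Chrm3 (0.997) and Kcnj16 (0.996). Cd36 was most like Babam2 and Asap2 (0.991 each), Scarb1 like Kcnj6 (0.991) and Slc16a7 (0.99), and Msr1 like Gpr132 (0.981) and Itgad (0.969). Lower values were found for Scarb2 with Exoc2 (0.941), Axl with Ccl9 (0.934) and Marco with Gm45521 (0.919) and Cd74 (0.912). Among the receptors themselves the most alike were Scarb1 and Stab1 (0.954) and Cd163 and Cd36 (0.923).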
